A study of Mus musculus with 7 samples.

Results

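RAB GTPases are the small membrane-bound GTPases that mark the compartments of vesicle traffic. They were taken as the rows of the count table whose gene symbol is Rab followed by a number and at most 1 letter, which gave 59 genes of the 24421 in the table. Of these, 45 held enough counts to be tested, 10 held a few counts and 4 (Rab18, Rab39, Rab3b and Rab9b) were listed at 0 in every library. Messenger RNA had been measured in 7 libraries of sorted non-immune stromal cells from BALB/c mice, read from the 3′ ends of polyadenylated transcripts. The 3 pCAF libraries held cancer-associated fibroblasts from tumors that had grown after 100000 4T1-luc mammary carcinoma cells were injected into the lower left mammary fat pad of females. The tumors were collected at 1 cm, and their cells were sorted as Ter119-, CD45-, EpCAM- and PDPN+ (podoplanin, a membrane protein found on many fibroblasts and on lymphatic vessels). The 4 NMF libraries came from the mammary fat pad of untreated mice, sorted as Ter119-, CD45- and EpCAM- with no selection on PDPN. The age label reads 8 weeks for pCAF, which is the age given for the injection, and 12 weeks for NMF, although the series calls the mice age matched, and tumor and fat pad were digested with different collagenases. pCAF replicate 3 has PDPN- in its selection label, against its title and source name, and was kept in pCAF. The labels call the replicates biological without naming animals, so a p-value here reflects only how much these 7 libraries vary.

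A RAB protein is switched on by an exchange factor that loads it with GTP and off by an activating protein that makes it hydrolyse the GTP. In its active form it sits on a membrane through lipid (prenyl) tails and recruits effectors, such as tethers and motor adaptors, that move, dock or fuse vesicles. A GDP dissociation inhibitor takes the inactive form back to the cytosol. In fibroblasts these routes carry procollagen and other matrix proteins out of the cell and bring integrins and growth factor receptors in.

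Total counts ran from 1885039 to 4990070 per library, and 1 count was worth 0.186 to 0.56 CPM (counts scaled to a common library size with TMM factors). pCAF replicate 1 and NMF replicate 4 stood apart. Across all tested genes the correlation of log2 CPM was 0.974 between pCAF replicates 2 and 3 but 0.83 with replicate 1, and 0.961 to 0.965 among NMF replicates 1 to 3 but 0.892 to 0.898 with replicate 4. Over the 45 tested RAB genes the corresponding values were 0.968, 0.796 and 0.845 in pCAF, and 0.957 to 0.958 and 0.848 to 0.885 in NMF. Results are therefore also given without both libraries, which leaves pCAF replicates 2 and 3 and NMF replicates 1 to 3. Both were picked for standing apart in these same data. P-values without them therefore lean toward passing and serve as description only. Fibroblast markers (Col1a1, Dcn, Pdgfra and 7 others) summed to 70150 to 81750 CPM in pCAF and to 22850 to 42270 in NMF. Most of this came from Col1a1, Col1a2 and Col3a1 (means of 27990, 23110 and 15950 CPM in pCAF, 7139, 6998 and 6728 in NMF). Not all of the 10 were higher in pCAF. Dcn averaged 4622 CPM in pCAF against 8309 in NMF (edgeR adjusted p = 0.0736), and Pdgfra 207 against 200 (0.916). The NMF libraries also held other cell types: 12 blood endothelial markers summed to 1956 to 3193 CPM in NMF and to 53.4 to 70.5 in pCAF, and 6 Schwann cell markers to 258 to 1004 against 4.96 to 16.2. The 6 adipocyte markers summed to 153 to 234 CPM in NMF and 6.06 to 10.1 in pCAF, where Cidec, Lep and Plin1 were at 0. In sum the 6 lymphatic endothelial markers overlapped (23.1 to 46.5 CPM in pCAF, 32.2 to 78.3 in NMF), but single genes went opposite ways. Mmrn1 was at 7.16 to 14.6 CPM in pCAF and 0 to 2.10 in NMF, and Flt4 at 6.61 to 19.6 against 26.9 to 59.9. Lyve1 overlapped, at 0, 11.8 and 14.3 CPM in pCAF and 0 to 5.03 in NMF. The 6 pericyte markers were at 304 to 495 against 153 to 252. Epithelial markers (9 genes, 185 to 573 CPM in NMF against 106 to 260) and macrophage and leukocyte markers (10 genes, 36.6 to 299 against 43.5 to 89.0) overlapped between the groups. The part of these cells in any RAB difference was not tested. In such bulk samples fewer cells of a type and less RNA per cell cannot be told apart.

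The RAB family as a whole was present at a like level in the 2 groups, while single members moved in opposite directions. All 59 genes together summed to 3112, 2825 and 2785 CPM in pCAF replicates 1 to 3 and to 2528, 2626, 2804 and 2534 CPM in NMF replicates 1 to 4. In edgeR's quasi-likelihood test with an adjusted p under 0.05 over all 10535 tested genes, 4 RAB genes were higher in pCAF (Rab6a, Rab31, Rab10 and Rab14), where the background of all genes was 14.3%. The 8 that were lower (Rab7b, Rab3d, Rab3a, Rab38, Rab30, Rab19, Rab40b and Rab1b) compare with a background of 14.2%. As shares of the 45 tested members these are 8.89% higher and 17.8% lower, and 26.7% in all against 28.4% of all genes, so the share of changed members was near the background. The median log2 fold change (pCAF over NMF) was -0.03 over the members and -0.02 over all tested genes. In 3 tested members every pCAF library was above every NMF library (background 19%), and in 12 every pCAF library was below (background 21.4%), 15 in all against a background of 40.4% either way. The 5 calls of Rab6a, Rab31, Rab7b, Rab3d and Rab3a held whichever single library was left out. Of these, Rab3a passed the filter on low counts with 7 libraries only through NMF, where it is high. Without both libraries that stood apart, 11 RAB genes were higher and 15 lower of 47 tested. The backgrounds were 25.9% and 26.9% (52.7% either way, against 28.4% with 7 libraries). All 12 calls made with 7 libraries were among them, which is no support for those calls, since the omitted libraries were picked from these data. Among the 45 genes tested with 7 libraries, 10 were higher and 14 lower without both. Of the 14, Rab4a, Rab6b, Rab27a, Rab36, Rab38 and Rab19 passed the filter on low counts there only through NMF, so those calls support nothing. Rab33a (higher) and Rab25 (lower) had not passed the filter on low counts with 7 libraries. They passed it here through the group where they are high, so their calls support nothing. Among the 8 lower with 7 libraries, Rab38, Rab19, Rab30, Rab40b and Rab3a also passed that filter only through NMF, so their calls support nothing either. Rab30, Rab40b and Rab3a met its level in pCAF replicates 2 and 3 but not in replicate 1. A filter on a mean of at least 10 CPM left Rab38 and Rab19 untested, and 6 RAB genes were then lower.

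**Figure D1:**
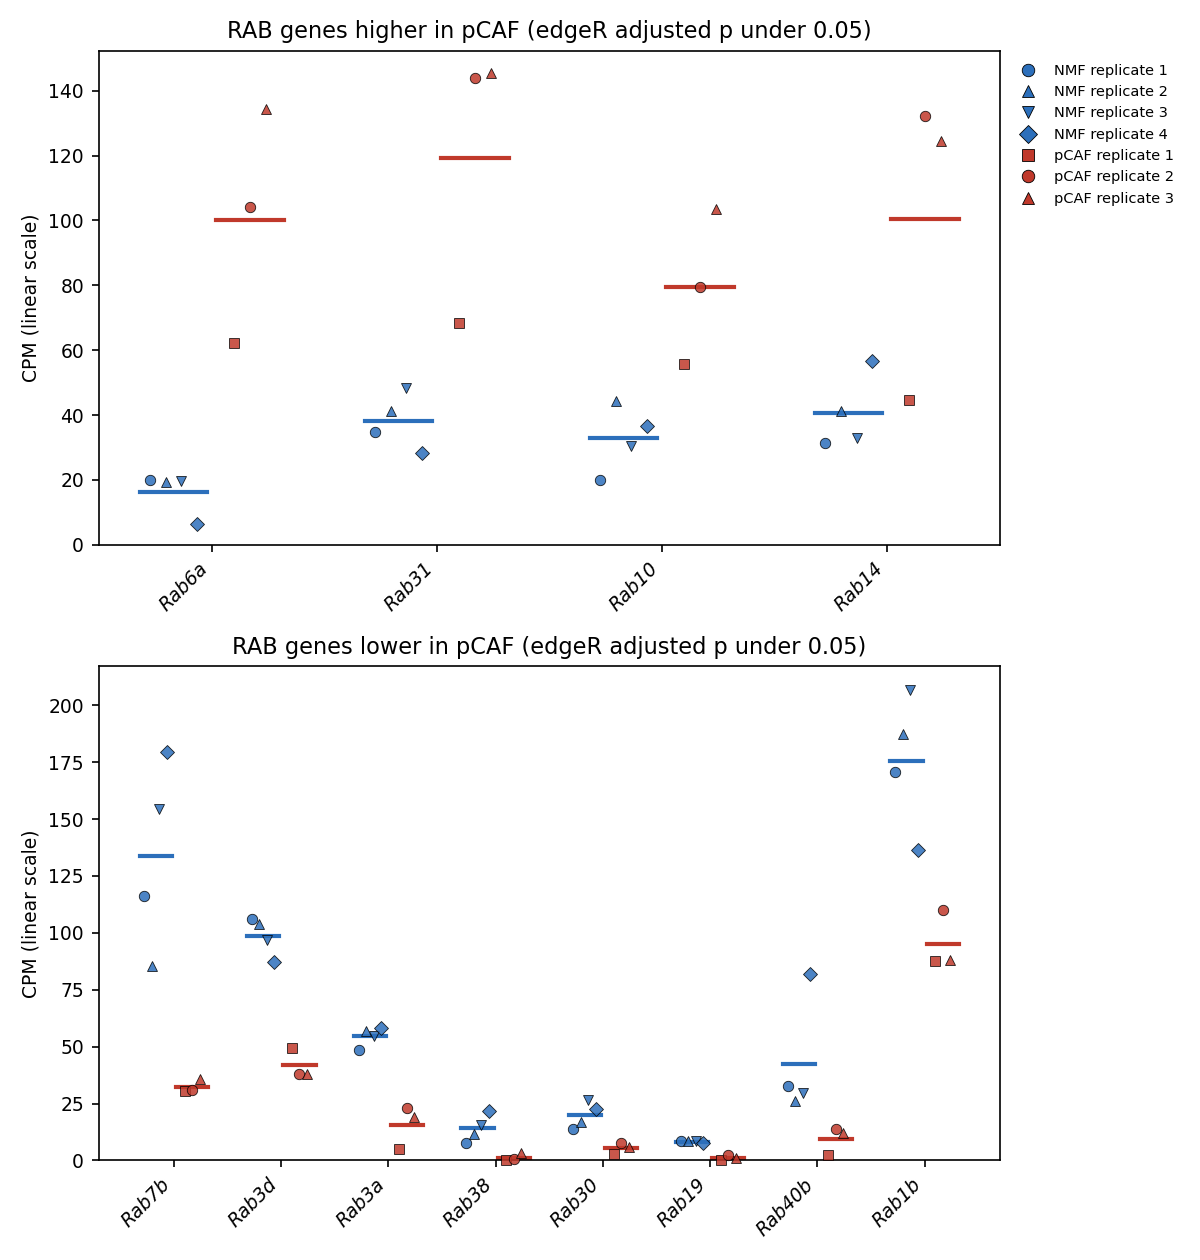
CPM (linear scale) of the 12 RAB genes past the threshold, with 1 point per library (red, pCAF, n = 3; blue, NMF, n = 4) and a bar at each group mean. In Rab6a, Rab31 and Rab10 every pCAF library lies above every NMF library; in Rab14 pCAF replicate 1, at 44.6 CPM, lies below NMF replicate 4, at 56.8; in the 8 genes of the lower panel every pCAF library lies below every NMF library.

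The stretches before the start sites of the leading members are shown because the title of the series concerns the transcription factor RUNX1, and because these genes moved in opposite directions. The sequences are those of RefSeq for GRCm38.p6, the assembly that mm10 stands for. Each holds the 250 bases before the start that RefSeq gives, 5′ to 3′ on the gene's strand, for the first 2 risers and the first 2 fallers by adjusted p that have an entry. Capitals mark matches on either strand to TGTGGT (the RUNX core), TGACGT (the core of the cyclic AMP response element), CACGTG (an E-box) and GGGCGG (a GC box).
Rab6a (higher, chr7:100607336-100607585, plus strand): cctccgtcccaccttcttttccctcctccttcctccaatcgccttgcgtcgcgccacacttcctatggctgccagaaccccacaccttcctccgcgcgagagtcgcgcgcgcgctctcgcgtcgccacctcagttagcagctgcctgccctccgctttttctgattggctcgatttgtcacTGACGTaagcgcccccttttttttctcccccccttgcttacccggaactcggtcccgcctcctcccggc
Rab31 (higher, chr17:65772753-65773002, minus strand): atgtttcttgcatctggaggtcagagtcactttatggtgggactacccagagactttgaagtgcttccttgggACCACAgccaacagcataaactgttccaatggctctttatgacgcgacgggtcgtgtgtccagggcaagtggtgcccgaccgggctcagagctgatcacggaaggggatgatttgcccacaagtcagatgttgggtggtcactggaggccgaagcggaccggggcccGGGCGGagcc
Rab3d (lower, chr9:21918184-21918433, minus strand): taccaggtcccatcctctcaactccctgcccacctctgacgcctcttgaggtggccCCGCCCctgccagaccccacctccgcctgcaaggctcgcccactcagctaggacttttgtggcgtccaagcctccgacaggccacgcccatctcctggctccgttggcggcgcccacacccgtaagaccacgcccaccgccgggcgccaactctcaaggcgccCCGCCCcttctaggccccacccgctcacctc
Rab3a (lower, chr8:70754453-70754702, plus strand, the more upstream of 2 starts): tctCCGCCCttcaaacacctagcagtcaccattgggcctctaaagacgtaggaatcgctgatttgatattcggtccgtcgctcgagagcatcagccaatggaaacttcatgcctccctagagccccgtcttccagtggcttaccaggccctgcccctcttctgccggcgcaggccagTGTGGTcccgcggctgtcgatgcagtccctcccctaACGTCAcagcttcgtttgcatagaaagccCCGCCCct
The gene positions given with the results are those of GENCODE M21, whose starts differ from those of RefSeq. By GENCODE, 176 of the 250 bases shown for Rab6a lie inside the gene, as do 24 of those for Rab3a, 9 of those for Rab3d and 0 of those for Rab31. Distances below are from the RefSeq start. The RUNX core begins 177 bases before the start of Rab31, which rose, and 73 bases before that of Rab3a, which fell, and is not in the windows shown for Rab6a and Rab3d. Among the 48 members with an entry, 9 held it in a window (18.8%), against 15.9% of 27025 genes. The cyclic AMP core lies 69 bases before the RefSeq start of Rab6a, which is inside the gene by GENCODE, and 37 before that of Rab3a; 14.6% of members and 7.29% of all genes held it. GC boxes were in 75% of members and 35.4% of all genes, among them 3 of the 4 risers (Rab10, Rab14 and Rab31) and 4 of the 5 fallers with an entry (Rab1b, Rab3a, Rab3d and Rab40b). E-boxes were in 10.4% of members, none of them past the threshold, and in 6.86% of all genes. All genes here means every symbol with an entry, of any type and level, while the members are protein coding. The gaps in motif shares were therefore not taken as a RAB trait. These are matches of letters in a window, and no binding was measured.

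Among the RAB genes of the endoplasmic reticulum and Golgi, Rab6a rose and Rab30 and Rab1b fell, of 11 tested. Rab6a, which directs carriers from the Golgi to the cell surface and back to the endoplasmic reticulum, was at 62.3, 104 and 134 CPM in pCAF replicates 1 to 3. In NMF replicates 1 to 4 it was at 19.96, 19.3, 19.6 and 6.49 CPM. The lowest pCAF library was above the highest NMF library, and NMF replicate 4 was the lowest of all. The means were 100.2 ± 36.2 CPM (SD, n = 3) and 16.3 ± 6.57 CPM (SD, n = 4), a 6.21-fold rise (log2 fold change 2.63, SE 0.43, edgeR adjusted p = 0.00150). Rab6a lies on mm10 chromosome 7 from 100607410 to 100641268, on the plus strand. Rab1b, which with its paralog Rab1 drives traffic from the endoplasmic reticulum to the Golgi, was at 87.6, 110 and 88.1 CPM in pCAF and at 171, 187.5, 207 and 136 CPM in NMF. It was 1.84-fold lower (log2 fold change -0.88, SE 0.25, adjusted p = 0.0255). Although the groups did not overlap, Rab1b no longer passed when pCAF replicate 2 (adjusted p = 0.0505) or 3 (0.0982) was left out, nor without NMF replicate 1 (0.0614), 2 (0.0665) or 3 (0.0823). Rab30, a Golgi RAB, fell from 20.0 ± 5.77 CPM (SD, n = 4; 13.8, 16.8, 26.6 and 22.8) to 5.55 ± 2.58 CPM (SD, n = 3; 2.76, 7.84 and 6.06). The fall was 3.59-fold (adjusted p = 0.0163), and 3.21-fold without NMF replicate 3, where it did not pass (0.0538). Rab30 passed the filter on low counts only through NMF, where it is high, so its call adds nothing to these values.

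The other 8 tested genes of this group did not pass. Rab1 was at 35.8, 75.6 and 80.9 CPM in pCAF against 28.0, 40.7, 32.9 and 77.4 in NMF (adjusted p = 0.400). Its pCAF replicate 1 was low and its NMF replicate 4 high, and without these 2 libraries it was 2.30-fold higher (adjusted p = 1.14e-04). Rab6b, the Golgi paralog of Rab6a known mainly from neurons, was at 45.2 CPM in pCAF replicate 1 and at 7.84 and 3.85 CPM in replicates 2 and 3, against 11.8 to 35.6 CPM in NMF. With all libraries its adjusted p was 0.656. Without pCAF replicate 1 it was 4.55-fold lower (adjusted p = 0.0109), but Rab6b then passed the filter on low counts only through NMF, so that call is no result. Rab34 averaged 151 ± 42.0 CPM in pCAF and 105 ± 7.67 CPM in NMF (adjusted p = 0.155). When pCAF replicate 1 was left out it was 1.67-fold higher and passed (adjusted p = 0.0128). Rab2a, at 193 ± 49.97 against 141 ± 28.3 CPM (adjusted p = 0.257), passed without both libraries that stood apart (1.42-fold higher, 0.0173). Rab36 held 0 to 10.5 CPM per library (adjusted p = 0.815) and was 4.37-fold lower when both were left out (0.0403). In that setting Rab36 passed the filter on low counts only through NMF, so its call there is no result. Rab33b, Rab2b and Rab43 had adjusted p from 0.683 to 0.897. Rab33b has a 3′ end that matches transcripts of 137 other genes, so its share of reads is uncertain. Rab33a, not tested, held 0, 10 and 12 counts in pCAF and 0, 0, 1 and 12 in NMF. With both libraries that stood apart left out it passed the filter on low counts through its 2 remaining pCAF libraries, so its call there is no result.

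**Figure D2:**
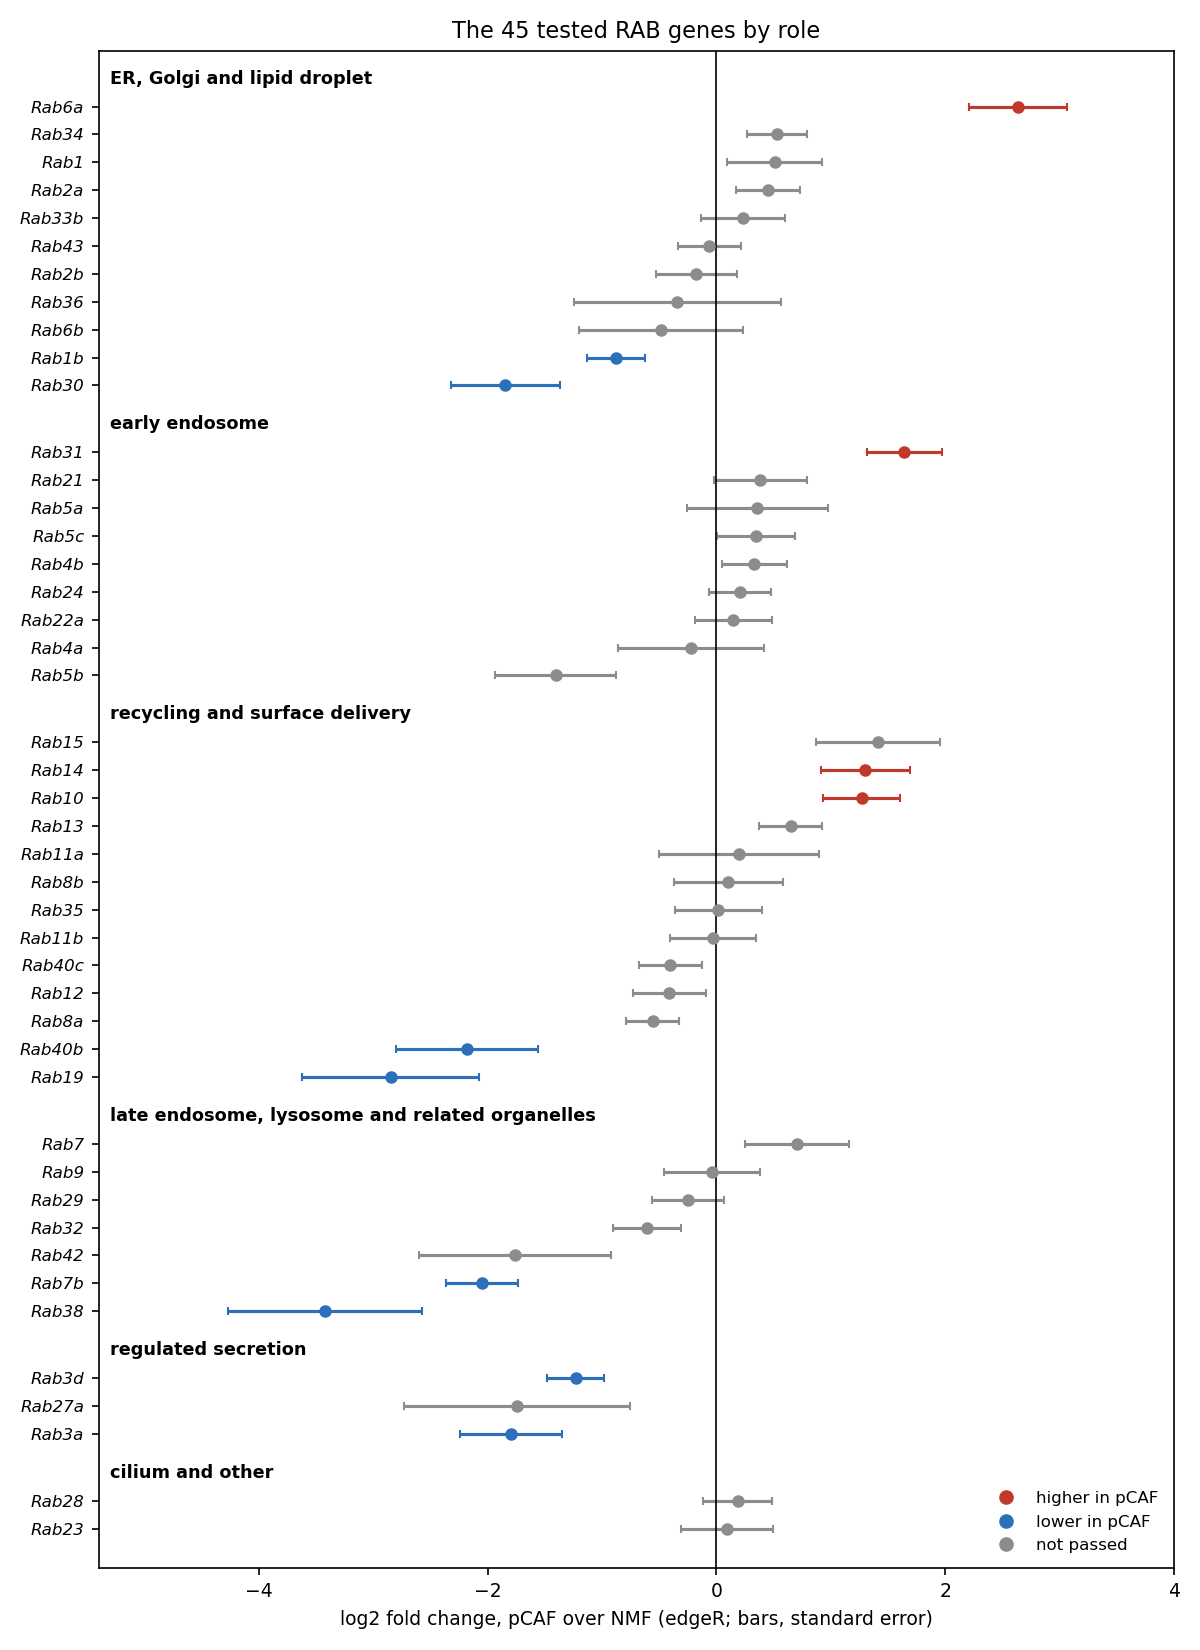
Log2 fold change (pCAF over NMF, edgeR, 7 libraries) of the 45 tested RAB genes grouped by role, with bars for the standard error; red and blue mark genes past the threshold. The risers are Rab6a, Rab31, Rab14 and Rab10, and the largest fitted falls are those of Rab38 (-3.42), Rab19 (-2.85), Rab40b (-2.18) and Rab7b (-2.05).

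Early endosomes sort what a cell has just taken up. Of the 9 tested genes listed in the early endosome group, 1 rose. Rab31, which works between the trans-Golgi network and endosomes, was at 68.3, 144 and 145 CPM in pCAF and at 34.9, 41.1, 48.3 and 28.4 CPM in NMF. Every pCAF library was above every NMF library, with pCAF replicate 1 the closest to them. It was 3.13-fold higher (119 ± 44.0 CPM, SD, n = 3, against 38.2 ± 8.499 CPM, SD, n = 4; log2 fold change 1.65, SE 0.33, adjusted p = 0.00440). Rab31 lies on mm10 chromosome 17 from 65651729 to 65772752, on the minus strand. Its closest relative Rab22a was at 36.4 ± 12.7 CPM in pCAF (SD, n = 3) and 32.9 ± 7.21 CPM in NMF (SD, n = 4; adjusted p = 0.783).

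The RAB5 genes, which drive fusion of early endosomes, did not pass with all libraries. Rab5b was at 2.76, 15.1 and 13.8 CPM in pCAF and at 31.9, 32.7, 31.5 and 16.5 CPM in NMF. The groups did not overlap, and the adjusted p was 0.0738. It passed with DESeq2's test (0.0267), but with all libraries it met the filter on low counts only through NMF. With both libraries that stood apart left out, Rab5b was 2.23-fold lower (0.00147). Rab5c was at 244 to 308.5 CPM in pCAF and at 127 to 296 CPM in NMF (adjusted p = 0.493), and Rab5a at 4.41 to 7.84 and 1.67 to 7.29 CPM (0.709). Rab4a, of the fast recycling route, was at 37.5 CPM in pCAF replicate 1 but at 7.84 and 4.41 CPM in replicates 2 and 3, against 12.1 to 23.4 CPM in NMF. It did not pass (adjusted p = 0.831), but was 3.14-fold lower without pCAF replicate 1 (0.0153). In that setting Rab4a passed the filter on low counts only through NMF, so its call there is no result. Rab4b was at 282, 152 and 144 CPM in pCAF and 143 to 168.5 CPM in NMF (adjusted p = 0.428). Rab21 was at 27.0, 77.8 and 83.7 CPM in pCAF and at 28.6 to 56.2 CPM in NMF (adjusted p = 0.522), and was 1.46-fold higher without both libraries that stood apart (0.0164). Rab24, at 107 ± 37.1 against 92.7 ± 6.87 CPM, had an adjusted p of 0.612, and its 3′ end overlaps Prelid1 on the other strand.

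Among the 13 tested genes of recycling and delivery to the cell surface, Rab10 and Rab14 rose and Rab19 and Rab40b fell. Rab10, which delivers Golgi and storage vesicles to the surface (the glucose transporter GLUT4 among their cargo), was at 55.7, 79.5 and 103.5 CPM in pCAF. In NMF it was at 19.96, 44.5, 30.4 and 36.7 CPM, and the groups did not overlap. The rise was 2.42-fold (log2 fold change 1.27, SE 0.34, adjusted p = 0.0182); it did not pass without pCAF replicate 3 (0.0797) or NMF replicate 1 (0.0555) or 3 (0.0547). The 3′ end of Rab10 overlaps Rab10os on the other strand, and with the strand setting not given their reads cannot be told apart. Rab14, which works between Golgi and recycling endosomes, was at 44.6, 132 and 124 CPM in pCAF and at 31.5, 41.1, 32.9 and 56.8 CPM in NMF. pCAF replicate 1 fell within the NMF range, and the others were above it. Rab14 was 2.46-fold higher (log2 fold change 1.30, SE 0.39, adjusted p = 0.0307), and 3.63-fold without both libraries that stood apart (3.19e-07). The call was lost without pCAF replicate 2 (0.115) or 3 (0.102), without NMF replicate 1 (0.0961), 2 (0.0790) or 3 (0.0853), and with library totals (0.0731) or limma-voom (0.0572).

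Rab40b carries a SOCS box, the motif through which such proteins join ubiquitin ligases. It was at 2.20, 13.99 and 12.1 CPM in pCAF and at 32.6, 26.0, 29.7 and 82.0 CPM in NMF, where replicate 4 was far above the others. It was 4.53-fold lower (log2 fold change -2.18, SE 0.62, adjusted p = 0.0252). Without NMF replicate 4 the fold was 3.09 and did not pass (0.0604), and the call was also lost without pCAF replicate 3 (0.0503). Without both libraries that stood apart it was 2.27-fold lower (0.00193). With all libraries Rab40b passed the filter on low counts only through NMF, where it is high, so that call adds nothing to these values. Rab19 was at 0, 2.24 and 1.10 CPM in pCAF and at 8.44, 8.39, 8.74 and 7.61 CPM in NMF, with 6 counts in all of pCAF. The fitted fall was 7.20-fold (adjusted p = 0.0200), and it did not pass without pCAF replicate 3 (0.0692). Rab19 passed the filter on low counts only through NMF, where it is high, so its call adds nothing to these counts. Without pCAF replicate 2, 2 pCAF counts were left, and the NMF level was 14.8 times that of pCAF (4.00 to 124, 95% interval for counting error).

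Rab8a, which carries cargo from the Golgi to the surface and the cilium, did not pass, although its libraries were close within each group. It was at 82.6, 80.6 and 86.4 CPM in pCAF and at 133, 110.3, 139.9 and 107 CPM in NMF (1.47-fold lower, adjusted p = 0.09999). It passed with library totals (0.0298), with DESeq2's test (0.0495) and without both libraries that stood apart (0.00791). Rab15, which acts in endocytic recycling, was at 6.61, 43.7 and 38.5 CPM in pCAF and at 8.54 to 12.3 CPM in NMF (adjusted p = 0.0760). It was 3.71-fold higher without pCAF replicate 1 (6.59e-04), and it passed with DESeq2's test (0.0459). Rab8b, at 8.82, 24.6 and 20.4 CPM against 11.5, 12.6, 13.6 and 28.2 (adjusted p = 0.895), was 1.77-fold higher without both libraries that stood apart (0.0234). Rab13, a surface delivery RAB close to Rab8a and Rab10, was at 132 ± 26.2 against 83.9 ± 20.6 CPM (adjusted p = 0.104). The recycling endosome genes Rab11a (12.6 ± 8.59 against 11.1 ± 6.49 CPM, adjusted p = 0.865) and Rab11b (15.9 ± 4.68 against 16.2 ± 3.56 CPM, 0.960) did not pass. Rab12, Rab35 and Rab40c had adjusted p from 0.311 to 0.978. Rab25, the epithelial relative of Rab11a, was too low to be tested, with 2, 0 and 1 counts in pCAF and 23, 27, 10 and 13 in NMF. The NMF level was 9.96 times that of pCAF (3.28 to 49.4, 95% interval for counting error), and with no filter on low counts its adjusted p was 0.0273. Of the 9 epithelial markers 8 were tested; 4 were lower in pCAF (Krt19, Cdh1, Cldn7 and Epcam), and Krt8, Krt14, Krt18 and Cldn4 did not pass. Their summed level overlapped between the groups, both were sorted as EpCAM-, and the part of epithelial cells in the Rab25 difference was not tested.

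In the late endosome and lysosome group, Rab7b and Rab38 fell, of 7 tested. Rab7b, which returns cargo from late endosomes to the trans-Golgi network, was at 30.3, 30.8 and 35.8 CPM in pCAF. In NMF it was at 116, 85.6, 154 and 179 CPM, so that every NMF library was above every pCAF library. It fell 4.15-fold, from 134 ± 41.4 CPM (SD, n = 4) to 32.3 ± 3.04 CPM (SD, n = 3; log2 fold change -2.05, SE 0.32, adjusted p = 0.00112). Rab7b lies on mm10 chromosome 1 from 131688695 to 131715439, on the plus strand. Rab38, which with Rab32 brings enzymes to melanosomes and other lysosome-related organelles, held 0, 1 and 6 counts in pCAF and 20, 28, 44 and 118 in NMF. In CPM these were 0, 0.56 and 3.30 against 7.68, 11.8, 15.4 and 21.9. The fitted fall was 10.7-fold (adjusted p = 0.0136). Rab38 passed the filter on low counts only through NMF, where it is high, so its call adds nothing to these counts. Without pCAF replicate 3, with 1 pCAF count left, the NMF level was 57.1 times that of pCAF (10.1 to 2267, 95% interval for counting error). Rab38 did not pass without pCAF replicate 2 (0.0514), and fell 5.90-fold when both libraries that stood apart were left out. Rab32 was at 38.0 to 49.3 CPM in pCAF and 47.4 to 84.1 CPM in NMF (adjusted p = 0.155).

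Rab7, the main RAB of late endosomes and lysosomes, rested on 1 library. It was at 874 CPM in pCAF replicate 1 and at 241 and 203 CPM in replicates 2 and 3, against 274, 263, 260.2 and 282 CPM in NMF. With all libraries the log2 fold change was 0.70 (SE 0.46, adjusted p = 0.284); without pCAF replicate 1 it was -0.29 (adjusted p = 0.275). The 3′ end of Rab7 has a near-identical copy in Rab7-ps1 and overlaps Gm5577 on the other strand, so its share of reads is uncertain. Rab42 was at 0, 3.92 and 1.10 CPM in pCAF and at 5.03 to 6.65 CPM in NMF (adjusted p = 0.146), with no overlap between the groups. Rab9, at 18.2, 72.8 and 65.5 CPM against 45.6 to 66.1 (adjusted p = 0.956), and Rab29, at 28.8 ± 8.43 against 34.1 ± 5.51 CPM (0.602), did not pass.

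The genes of regulated secretion, in which stored granules are released on a signal, had 3 tested members, and Rab3a and Rab3d fell. Rab3d, a RAB of secretory granules, was at 49.6, 38.1 and 38.0 CPM in pCAF and at 106, 104, 96.9 and 87.2 CPM in NMF. It was 2.35-fold lower (log2 fold change -1.23, SE 0.25, adjusted p = 0.00452), and 2.70-fold without both libraries that stood apart (7.89e-06). Rab3a, best known from synaptic vesicles, was at 4.96, 22.9 and 19.3 CPM in pCAF and at 48.7, 57.1, 54.6 and 58.3 CPM in NMF. It was 3.47-fold lower (log2 fold change -1.80, SE 0.44, adjusted p = 0.0134). Rab3a passed the filter on low counts only through NMF, where it is high, so its call adds nothing to these values. Neither gene's groups overlapped. The 3′ end of Rab3a overlaps Mpv17l2 on the other strand, so its share of reads is uncertain. All 5 tested Schwann cell markers and all 12 blood endothelial markers were lower in pCAF as well, and their part in the RAB3 differences was not tested. Rab27a, which docks secretory lysosomes and exosome-bearing endosomes, was at 0, 5.60 and 2.75 CPM in pCAF and at 15.4, 14.3, 6.99 and 1.67 CPM in NMF. It did not pass (adjusted p = 0.220), but fell 2.90-fold when both libraries that stood apart were left out (0.0153). In that setting Rab27a passed the filter on low counts only through NMF, so its call there is no result. Its relative Rab27b held no count in pCAF and 2, 0, 1 and 0 counts in NMF replicates 1 to 4. The limit that no count in the pCAF group allows is 0.554 CPM, above the NMF mean of 0.279 CPM, so no difference was detectable at this depth. Rab26, Rab37, Rab3c and Rab44 held at most 2 counts in any library. Outside these groups, Rab23, an inhibitor of Hedgehog signalling at the cilium, and Rab28 did not pass (adjusted p = 0.891 and 0.687). Rab17 and Rab20 of the early endosome group and Rab39b of the Golgi group were not tested, with at most 6 counts in any library.

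**Figure D3:**
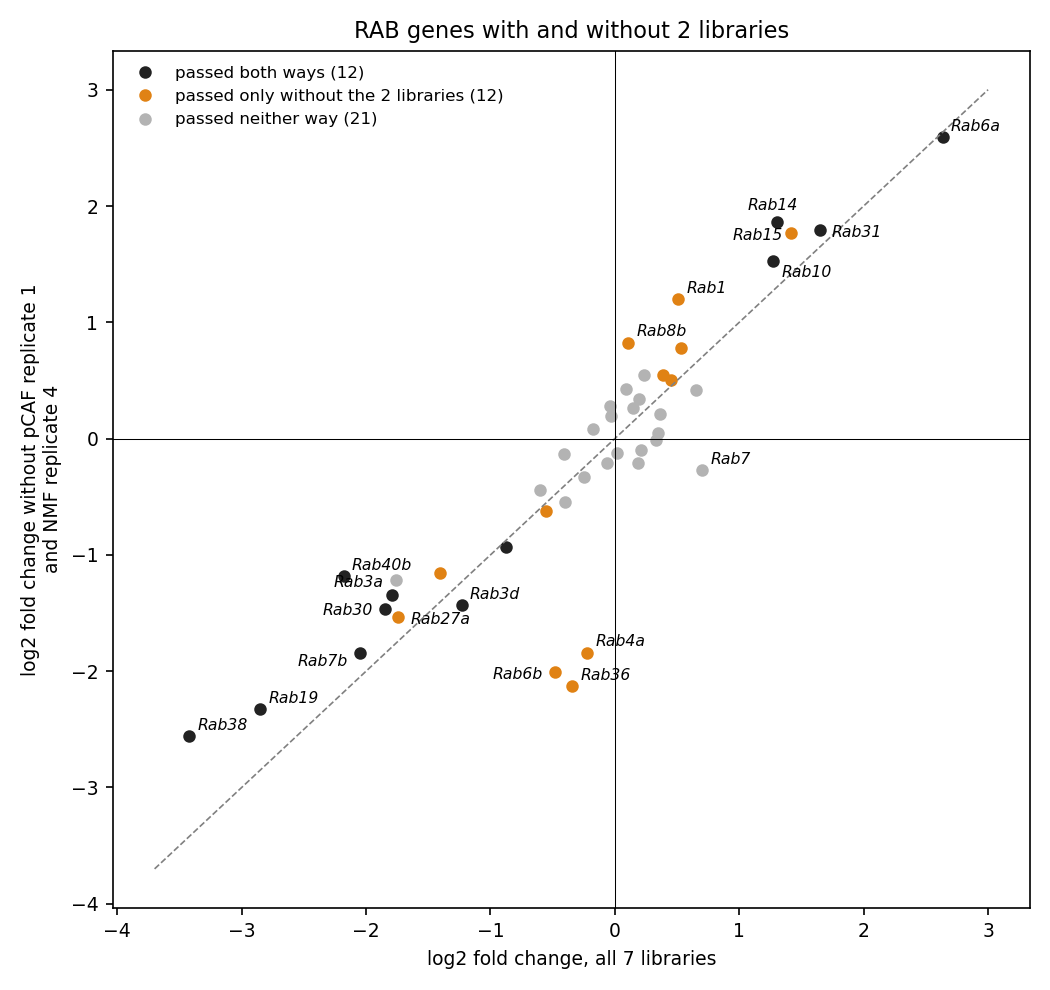
Log2 fold change of the 45 RAB genes tested with all 7 libraries (horizontal axis) against that without pCAF replicate 1 and NMF replicate 4 (vertical axis); the dashed line marks equal values. Black points (12) passed both ways, orange points (12) only without the 2 libraries, and gray points (21) neither way. Rab4a, Rab6b and Rab36 lie far below the line. Without the 2 libraries these genes passed the filter on low counts only through NMF, as did Rab27a, Rab38 and Rab19.

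Paralogs share a number or a close sequence relation, and in some families their shares did not overlap between the groups. In CPM the groups did not overlap for 40.4% of all tested genes, and no background was computed for shares. The shares of Rab31, Rab7b, Rab38 and Rab40b partly restate genes already past the threshold. So does the share of Rab8a, whose family counts include Rab10. The share of each paralog in the counts of its family was computed per library, as a description with no test. Rab31 made up 74.7%, 79.3% and 75.0% of the Rab22a and Rab31 counts in pCAF and 46.2%, 59.0%, 56.6% and 52.9% in NMF, with no overlap. Rab7b made up 3.35%, 11.3% and 15.01% of the Rab7 and Rab7b counts in pCAF and 24.5% to 38.9% in NMF. For Rab38 in its pair with Rab32 the shares were 0 to 8.00% and 12.7% to 20.7%. Rab8a was 27.2% to 29.5% of the Rab8a, Rab10 and Rab13 counts in pCAF and 49.8% to 54.8% in NMF, while the 3 genes summed to 294 ± 1.43 CPM (SD, n = 3) and 239 ± 30.4 CPM (SD, n = 4). Rab6a was 93.0% and 97.2% of the Rab6a and Rab6b counts in pCAF replicates 2 and 3. In pCAF replicate 1 it was 57.95%, within the range of 15.4% to 62.2% in NMF. Rab40b was 7.02% to 34.7% of the Rab40b and Rab40c counts in pCAF and 43.97% to 72.9% in NMF. Rab3a and Rab3d fell together, from 153 ± 6.51 to 57.6 ± 3.24 CPM in sum, and the share of Rab3a overlapped between the groups (9.09% to 37.6% in pCAF, 31.5% to 40.1% in NMF).

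**Figure D4:**
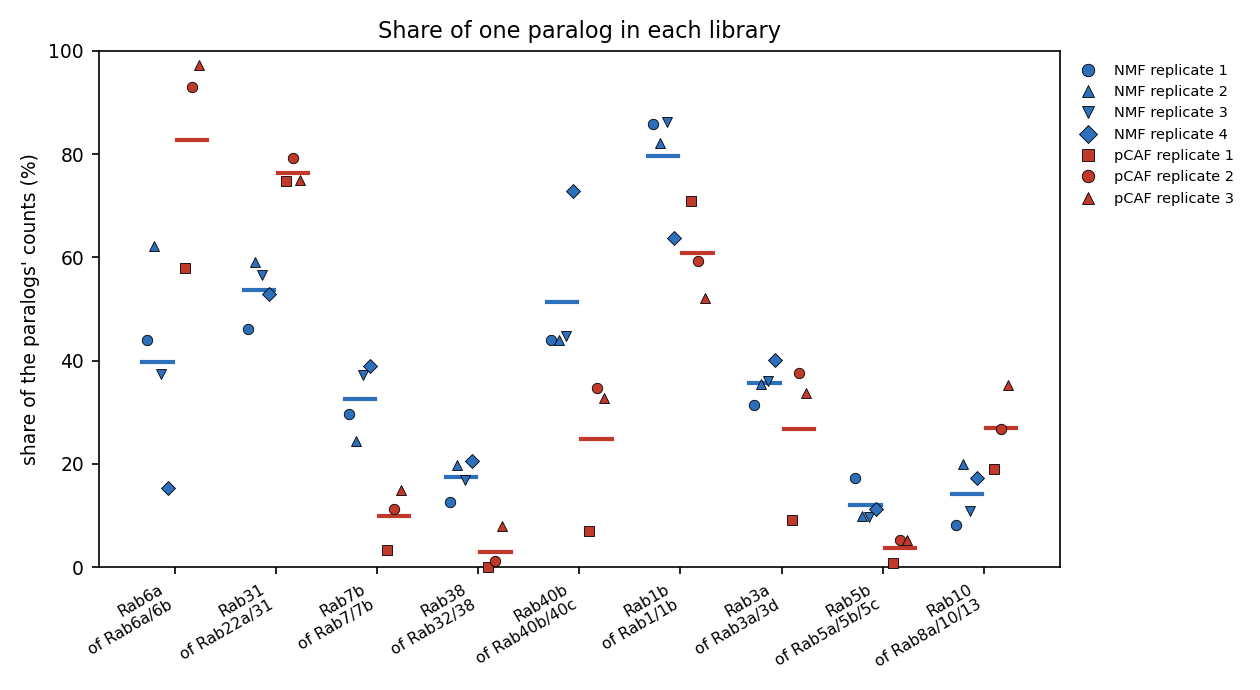
Share (percent) of 1 paralog in the summed counts of its family in each library, with a bar at each group mean (red, pCAF, n = 3; blue, NMF, n = 4). The shares of Rab31, Rab7b, Rab38, Rab40b and Rab5b do not overlap between the groups, while those of Rab6a, Rab1b, Rab3a and Rab10 do.

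The regulators and effectors of RAB proteins were read from the same fit, from 4 lists of genes chosen by function. Of 125 tested, 12 were higher and 15 lower in pCAF (9.6% and 12%, against the same backgrounds of 14.3% and 14.2%), with a median log2 fold change of -0.01. Without both libraries that stood apart, 24 were higher and 32 lower, where the backgrounds were 25.9% and 26.9%. Without pCAF replicate 1 the number lower was 26, without NMF replicate 1 it was 9, and without NMF replicate 2 it was 8. Of all genes, 2187 of 11048, 989 of 10201 and 1046 of 10285 were lower in these settings, against 1491 of 10535 with 7 libraries. The counts moved with those of all genes and are no result about the lists. Of 8 genes of prenylation and GDP dissociation, 2 rose and 1 fell. Gdi2, a GDP dissociation inhibitor, was at 560.3, 244.5 and 286 CPM in pCAF and at 96.1 to 110.2 CPM in NMF, 3.49-fold higher (adjusted p = 0.00203). Rabggtb, the catalytic subunit of the enzyme that adds the prenyl tails, rose 2.78-fold, from 52.5 ± 13.1 CPM (SD, n = 4) to 145.5 ± 20.9 CPM (SD, n = 3; adjusted p = 0.00322). Rabac1, a membrane receptor for prenylated RAB proteins, fell 2.13-fold, from 553 ± 61.7 to 260.1 ± 24.5 CPM (adjusted p = 0.00761).

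Exchange factors rose in 1 case and fell in 5, of 42 tested. Madd, which activates RAB3 and RAB27 proteins, was at 1.10, 3.92 and 3.85 CPM in pCAF and at 27.6, 26.0, 11.5 and 33.6 CPM in NMF, 8.26-fold lower (adjusted p = 0.00327). Rab3il1, an exchange factor named for its binding to RAB3A, fell 4.18-fold, from 75.1 ± 28.6 to 17.9 ± 7.27 CPM (adjusted p = 0.00489). Rin1, which activates RAB5 and binds RAS, rose 4.18-fold, from 4.92 ± 2.21 to 20.5 ± 1.53 CPM (adjusted p = 0.00739). GTPase-activating proteins rose in 4 cases and fell in 4, of 31 tested. Tbc1d15, which inactivates RAB7, was at 66.7, 27.4 and 33.0 CPM in pCAF and at 7.13 to 10.8 CPM in NMF, 4.84-fold higher (adjusted p = 0.00196). Tbc1d20, which inactivates RAB1, fell 8.17-fold (3.50 ± 2.21 against 29.1 ± 12.7 CPM, adjusted p = 0.00334), and 12.7-fold without pCAF replicate 3. Tbc1d20 passed the filter on low counts only through NMF, where it is high, so its call adds nothing to these values. Tbc1d17 fell 2.80-fold (adjusted p = 0.00228).

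Effectors rose in 5 cases and fell in 5, of 44 tested. Mical2, an actin-oxidising enzyme of a family that binds RAB proteins, had the smallest adjusted p of the 4 lists. It was at 175, 173.5 and 180.0 CPM in pCAF and at 12.4 to 21.7 CPM in NMF, 11.7-fold higher (log2 fold change 3.55, SE 0.28, adjusted p = 3.70e-05). Uso1, a tether that RAB1 recruits to vesicles leaving the endoplasmic reticulum, rose 2.85-fold, from 59.2 ± 12.5 to 169 ± 51.7 CPM (adjusted p = 0.00396). Rilp, through which RAB7 recruits the dynein motor, fell 4.11-fold (3.69 ± 0.85 against 15.4 ± 6.35 CPM, adjusted p = 0.0135), a call lost without pCAF replicate 3 (0.0560). Rph3al, an effector of RAB3 and RAB27 on secretory granules, held 2 counts in pCAF and 107 in NMF, a ratio of 21.9 in CPM (5.92 to 183, 95% interval for counting error; adjusted p = 0.00596). The 2 counts were in pCAF replicate 2, and without that library no pCAF count was left. Rph3al and Rilp, like Madd and Tbc1d20 above, passed the filter on low counts only through NMF, and Rin1 only through pCAF. Each is high in the group that let it pass, so these calls support nothing.

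**Figure D5:**
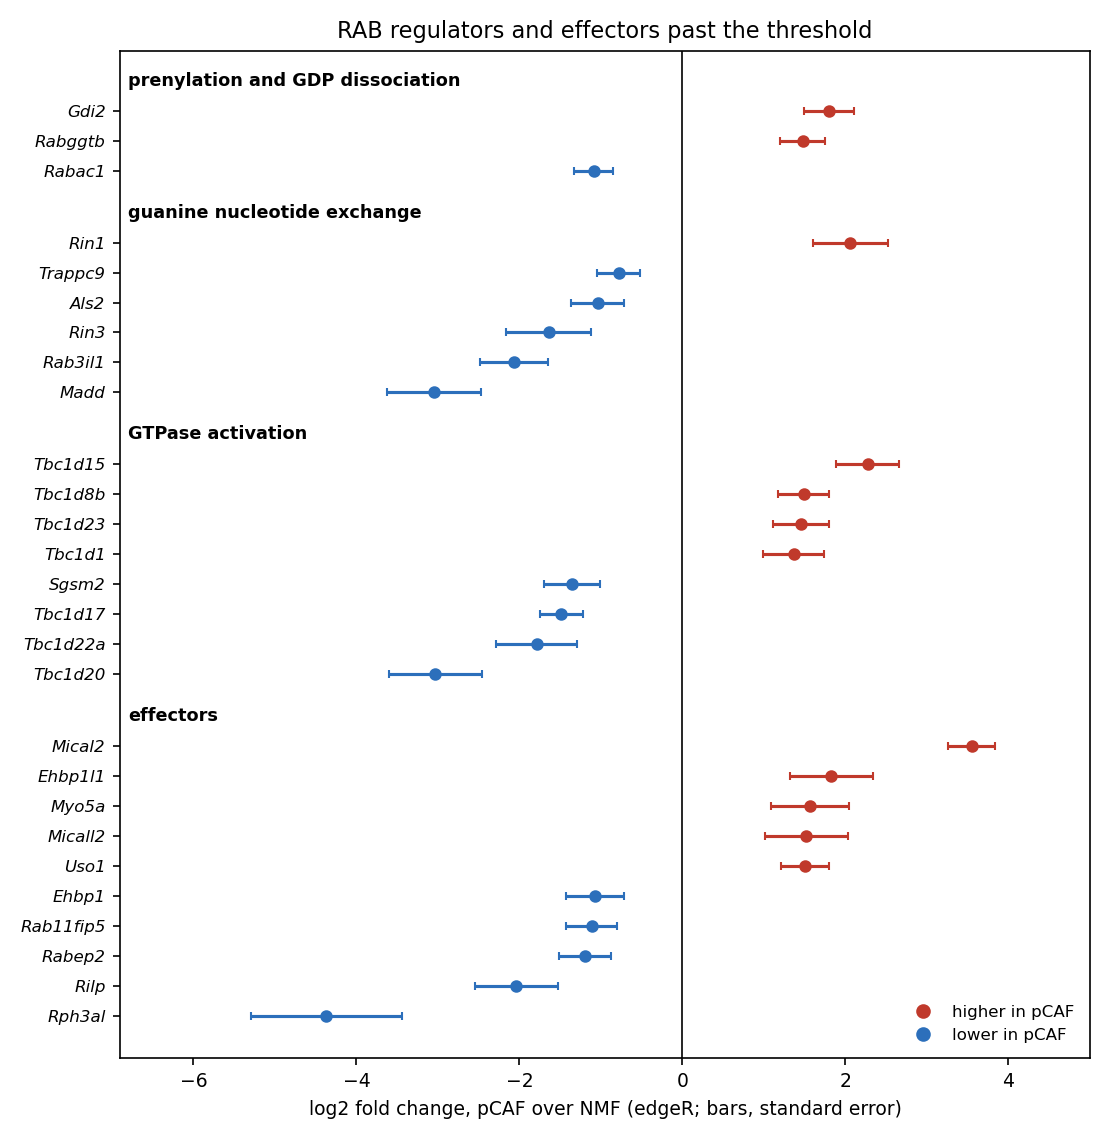
Log2 fold change (pCAF over NMF, edgeR, bars for the standard error) of the 27 RAB regulators and effectors past the threshold, by list (red, higher in pCAF; blue, lower). The 12 that rose include Mical2 (3.55), Tbc1d15 (2.28) and Rin1 (2.06), and the 15 that fell include Rph3al (-4.37), Madd (-3.05) and Tbc1d20 (-3.03). Rin1, Rph3al, Madd and Tbc1d20 passed the filter on low counts only through the group where they are high.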

How the data were processed

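Libraries of 3′ mRNA ends were deposited as raw counts per gene symbol, with no scaling by the authors per the file headers and values. The tools and build listed per the submitters' processing notes are mm10, HTSeq, STAR 2.4.2a and bcl2fastq; their roles, the annotation, the strand setting and the use of molecular identifiers are not given in the sources used here. Samples were grouped by title. The main comparison was edgeR 4.0.16 (R 4.3.3), run on the 10535 genes that filterByExpr left, with TMM factors and its robust quasi-likelihood test (two-sided). P-values were adjusted by Benjamini-Hochberg over those 10535 genes, and genes under 0.05 were called. CPM values use the TMM-scaled totals. Fold changes are those fitted by edgeR. Counting intervals (95%, exact binomial) and the limit of 3 counts cover counting error only. Adjusted p-values in the text are edgeR's unless DESeq2 1.42.0 or limma-voom (limma 3.58.1) is named.

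The members and lists were chosen with earlier results of these data known. Values per library are given for each member past the threshold and for Rab7, Rab31 and Rab27b; other members are named because all are accounted for, and regulators were named from the first 6 of each list by adjusted p. All 59 members were matched to GENCODE M21 (mm10), Rab1 through its newer symbol Rab1a. The last 300 bases of their transcripts were compared with all others by blastn 2.17.0 (at least 80 bases at 95% identity). Overlaps of the last 1000 bases with exons of other genes were listed. A match was found for 13 members, some of it to transcripts that overlap the member itself. Among them were Rab9 (Rab9b-ps1), Rab4b (Gm21983, overlapping on the same strand) and Rab11a (Gm47308, also on the same strand). Promoter windows came from RefSeq, where 48 members had an entry; no protein sequence was used here. The fit was tested on simulated counts of 10535 genes, with 67, 67 and 66 genes planted at 2-fold, 4-fold and 8-fold. The share found was 2.99%, 55.2% and 92.4% in turn, and 6 of 106 calls were false. In the data 28.4% of genes were called, far more than were planted, so these shares do not give the power of the real test. Alternatives were other scalings, tests and filters, thinned libraries, a replicate block, omission of single libraries, and both libraries that stood apart left out together. Libraries with the same number were not treated as pairs, since their deviations from the group means correlated at -0.09, 0.08 and -0.01.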

Additional observations from a re-analysis of the deposited data

Results flagged for a closer look

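In 5 of the 45 tested RAB genes 1 of the 4 NMF libraries lay far from the other 3, by Dixon's ratio of gap to range at the 95% level, which chance alone passes in about 1 of 20 groups. In each case it was NMF replicate 4. Rab40b was at 82.0 CPM there, against 26.0 to 32.6 CPM in the others, and Rab8b at 28.2 CPM against 11.5 to 13.6. Rab6a was at 6.49 CPM against 19.3 to 19.96, Rab5b at 16.5 CPM against 31.5 to 32.7, and Rab21 at 28.6 CPM against 53.0 to 56.2. The pCAF group, with 3 libraries, could not be checked this way.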

How the results depend on the processing

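Of 759 values of single RAB genes under 17 alternatives, 662 kept their direction and their side of the threshold, 23 lost a call, 20 gained one and 54 changed sign. Every sign change was in a gene that had not passed with all libraries, and the cause was not tested. With 1 library left out at a time, 2 to 6 RAB genes were higher (2 without pCAF replicate 3, NMF replicate 1 or NMF replicate 3) and 5 to 11 lower (5 without pCAF replicate 3). Regulators and effectors ranged from 8 to 18 higher and 8 to 26 lower, and all genes from 1004 to 2021 higher and 989 to 2187 lower. Without both libraries that stood apart, 11 RAB genes were higher and 15 lower, regulators 24 and 32, and all genes 2802 and 2913.

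Replicate numbers did not pair the groups. With the replicate block 5 RAB genes were lower and 4 higher (Rab19, Rab30 and Rab40b no longer passed, with adjusted p of 0.0771, 0.0529 and 0.0810), 7 regulators were higher and 6 lower, and 978 genes in all were higher. Scaling by library totals put 37.1% of all calls on the higher side, against 50.2% with TMM, and moved the median of all genes from -0.02 to -0.26.

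The log2 fold changes that changed sign were as follows. With library totals the values were -0.067 for Rab22a, -0.128 for Rab23, -0.0506 for Rab24, -0.0759 for Rab28, -0.21 for Rab35 and -0.105 for Rab8b. With limma-voom Rab8b was at -0.00228. With no filter on low counts Rab35 was at -0.0205. With the replicate block the values were -0.368 for Rab11a, 0.0824 for Rab11b, -0.000294 for Rab22a, 0.0654 for Rab2b and -0.217 for Rab35. In thinned libraries the values were 0.0205 for Rab11b and -0.00156 for Rab35. With upper quartile scaling Rab35 was at -0.0244. With both libraries that stood apart left out the values were 0.191 for Rab11b, -0.101 for Rab24, -0.209 for Rab28, 0.0803 for Rab2b, -0.122 for Rab35, -0.0106 for Rab4b, -0.272 for Rab7 and 0.283 for Rab9. With 1 library left out at a time, they ran from -0.197 to 0.685 for Rab11a, -0.294 to 0.122 for Rab11b, -0.106 to 0.387 for Rab22a, -0.0364 to 0.279 for Rab23, -0.108 to 0.395 for Rab24 and -0.166 to 0.355 for Rab28. Ranges for the next genes were -0.28 to 0.0758 for Rab2b, -0.0471 to 0.543 for Rab33b, -0.211 to 0.202 for Rab35, -2.24 to 0.241 for Rab36, -0.209 to 0.0653 for Rab43 and -1.65 to 0.231 for Rab4a. For the remaining genes they were -0.0547 to 0.505 for Rab4b, -2.19 to 0.000286 for Rab6b, -0.289 to 1.05 for Rab7, -0.184 to 0.521 for Rab8b and -0.35 to 0.363 for Rab9.

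One count was worth 0.186 to 0.56 CPM. With all libraries thinned to the smallest total, 45 RAB genes were tested, 4 higher and 8 lower, as with the full counts. In simulated counts of 10535 genes, 2.99% of 2-fold changes were recovered. The parts of depth, replicate number, spread and the small number of planted changes in this were not separated.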

Other observations

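In pCAF replicate 1, among others, Rab7, Rab4a, Rab4b, Rab6b, Rab24 and Rab28 were above both other pCAF libraries, at 874, 37.5, 282, 45.2, 149 and 88.2 CPM. Rab9, Rab11a, Rab15, Rab5b and Rab3a were below both, at 18.2, 2.76, 6.61, 2.76 and 4.96 CPM. That library held counts for 43 of the 59 members, against 49 to 51 in the other 6. It also had the fewest genes with a count, 11090 against 13222 to 14353.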
